A study of Mus musculus with 106 samples.

Results

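The livers of male NOD/ShiLtJ mice on a high-fat diet (HFD) were compared with those of male NOD/ShiLtJ mice on a control chow (CD), 3 mice on each diet. NOD/ShiLtJ is an inbred strain known for spontaneous autoimmune diabetes, and the labels used here give no diabetes status for these mice. The 6 libraries, 1 per mouse, were taken by their labelled strain, sex and diet from the liver mRNA libraries of the series, which also hold 6 of NOD/ShiLtJ females and 46 of males of other strains, and all 14330 genes of the table were tested. The series holds females and males of 9 inbred strains on the same pair of diets, which made 36 groups of 3 mice, except for a single NZO/HlLtJ male on HFD. Fat, protein and carbohydrate supplied 6%, 20% and 74% of the calories of the chow, against 60%, 20% and 20% for HFD. The labels give no allele or agent besides the diet in either group. All mice were bred in the same facility, were switched to HFD or kept on chow at 8 weeks of age, and were killed in the morning at 21 weeks after perfusion with saline. Animal numbers of the HFD males and of the CD males lay in separate ranges, and mice entered the study at staggered times. The labels do not say whether the numbers follow time of entry. Diet cannot be told apart from any batch that goes with the numbers within this pair of groups. The numbers of HFD and CD mice were also separate in NOD/ShiLtJ females and in the males of each other strain.

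The liver makes fatty acids and cholesterol when carbohydrate is plentiful and burns fatty acids when fat is. Fatty acid synthesis is driven by the transcription factor SREBP-1 (gene Srebf1) and by a carbohydrate-sensing factor (Mlxipl). Cholesterol synthesis and uptake are driven by SREBP-2 (Srebf2), which is held inactive when sterols are abundant, and fatty acid oxidation genes are driven by the fatty acid receptor PPARα (Ppara).

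Gene counts summed to 42061153 to 52024187 in the 6 libraries, against 35534924 to 73577221 over the series. The library nearest to each of the 6 by expression was one of its own group. Correlations of log2 CPM (counts scaled to the same library size) across genes were 0.9858 to 0.9911 between libraries of 1 diet and 0.9785 to 0.9863 between diets. These ranges overlapped slightly. The first principal component of the 6 libraries, with 41.2% of their variance, separated the diets. The second, with 19.9%, set CD 2 (37.4) apart from the others (-13.6 to 0.59). Reads that were not uniquely aligned made up 22.1% to 24.1% of the reads in the HFD libraries and 19.3% to 21.5% in the CD libraries, without overlap, and the part of this difference in the results was not tested. The hepatocyte markers Alb, Apoa1, Ttr, Cps1, Serpina1c, Cyp2e1 and Glul were all abundant, with a summed level of 115267 to 119378 CPM on CD and 101354 to 111673 CPM on HFD. The lower sum on HFD came with Alb, while 5 of the 7 markers had positive log2 fold changes and the median was 0.29. In whole tissue, fewer cells of a type and less RNA per cell cannot be told apart.

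Between the diets, 192 genes differed in the male liver, 103 higher and 89 lower on HFD, by edgeR's quasi-likelihood test with Benjamini-Hochberg adjustment over all genes at a threshold of 0.05. These calls made up 1.34% of the 14330 genes, with 0.719% higher and 0.621% lower on HFD, and 163 of them were protein-coding genes. Among called genes with a mean of at least 1 CPM on either diet, the largest fall was that of Scd1, a fatty acid desaturase, and the largest rises were those of Myom3, a muscle structural protein, Wif1, a secreted inhibitor of Wnt signalling, and Dio1, which activates thyroid hormone. The median absolute log2 fold change of the called genes was 1.18, and 113 changed at least 2-fold, of which 72 were higher and 41 lower on HFD. The median log2 fold change of all genes was 0.0036. An unadjusted p under 0.05 was met by 1748 genes. The 3 HFD values lay all above or all below the 3 CD values in 185 of the called genes, and in 23.4% of all genes tested (12.4% with HFD higher and 11% with HFD lower). The genes nearest the threshold were Armt1 and Heatr5a, both with an adjusted p of 0.0493, on the inside and Klhl5 (0.0513) and Gm16551 (0.0518) on the outside.

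The count of 192 rested on all 6 mice: it was 116 without CD 1, 44 without CD 3, 60 without HFD 1, 77 without HFD 2, 157 without HFD 3 (130 of them among the 192) and 158 without CD 2 (121 among the 192). Of the 55 called genes in the named set, 13 kept their call in each of the 6 fits that left out 1 mouse.

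**Figure D1:**
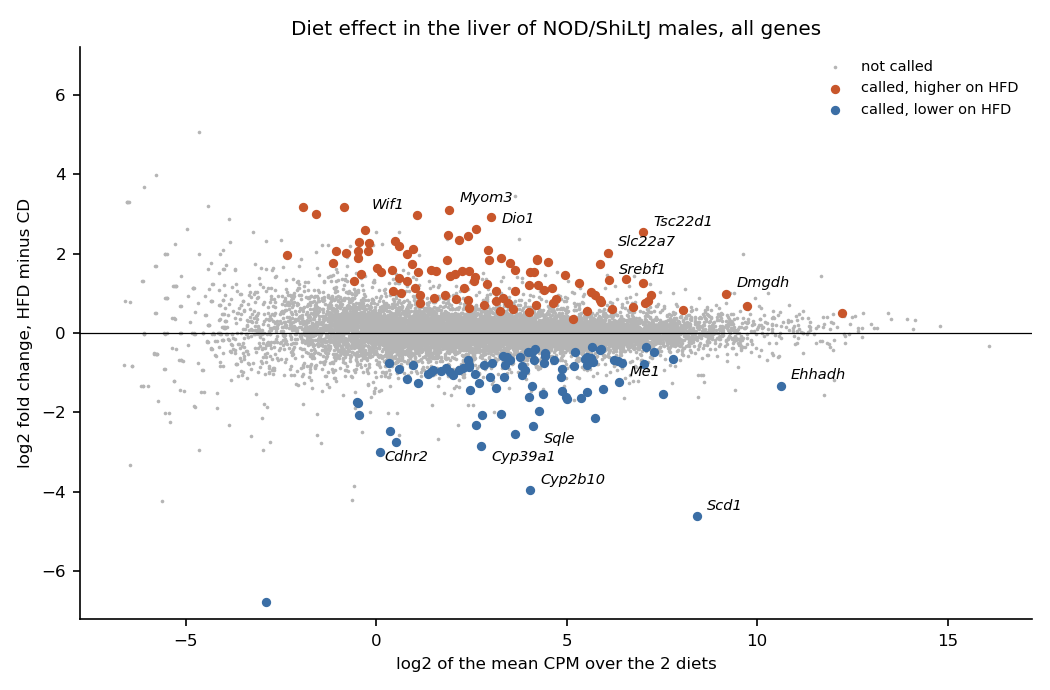
Each point is 1 gene in NOD/ShiLtJ males; the x axis is the log2 of its mean CPM over both diets and the y axis its fitted log2 fold change, HFD minus CD, so values above 0 are higher on HFD. The 103 called rises and 89 called falls stand out from the uncalled genes, Scd1 is the lowest of the abundant genes, and 58 genes below the left end of the x axis are not drawn.

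Of 25 genes of cholesterol synthesis and uptake, all in the table, 23 had a negative log2 fold change, 17 had all 3 HFD values below all 3 CD values (11% of all genes did), and 5 passed the test, all falling (0.621% of all genes). The median of the list was -0.72, beside 0.0036 for all genes. Squalene epoxidase (Sqle, chromosome 15, 59315077 to 59331192 in GRCm38), which catalyses the first oxygenation of the sterol pathway, stood at 17.1, 36 and 34.1 CPM in the CD mice and at 4.94, 3.56 and 8.75 CPM in the HFD mice. Every HFD mouse lay below every CD mouse, and the log2 fold change was -2.34 ± 0.51 (SE; adjusted p = 0.00625). Idi1, which isomerises the 5-carbon building block of sterols, stood at 5.68, 13.2 and 12.0 CPM on CD and at 1.75, 1.15 and 3.31 CPM on HFD. Its groups did not overlap either, with a log2 fold change of -2.31 ± 0.57 (adjusted p = 0.0187). Cyp51, the lanosterol demethylase, stood at 41.3, 77.1 and 68.4 CPM on CD and at 19.5, 15.1 and 25.8 CPM on HFD (log2 fold change -1.63, adjusted p = 0.00755). It overlaps Akap9, which is transcribed in the other direction, and the sources used here do not say whether counting took account of strand. Nsdhl, a sterol dehydrogenase of the same branch, fell from 16.1, 31.9 and 24.3 CPM to 10.1, 8.27 and 10.4 CPM (-1.33, adjusted p = 0.0202).

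The other 20 members did not pass the test. Insig1, which retains the SREBPs in the endoplasmic reticulum, had a log2 fold change of -1.07 (adjusted p = 0.171), and Srebf2 itself of -0.30 (0.531). The positive values were those of Ebp (0.15) and Fdft1 (0.00). The direction of the list was the same when any 1 mouse was left out, with a median between -0.84 and -0.61. The number of members called was not: it was 0 without HFD 1 or without HFD 2, 1 without CD 3, 3 without CD 2, 4 without HFD 3 and 5 without CD 1. With the NOD/ShiLtJ libraries alone it was 5, but Sqle (adjusted p = 0.0603), Cyp51 (0.062) and Nsdhl (0.0512) were no longer among them, and with the 6 male libraries alone it was 11.

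**Figure D2:**
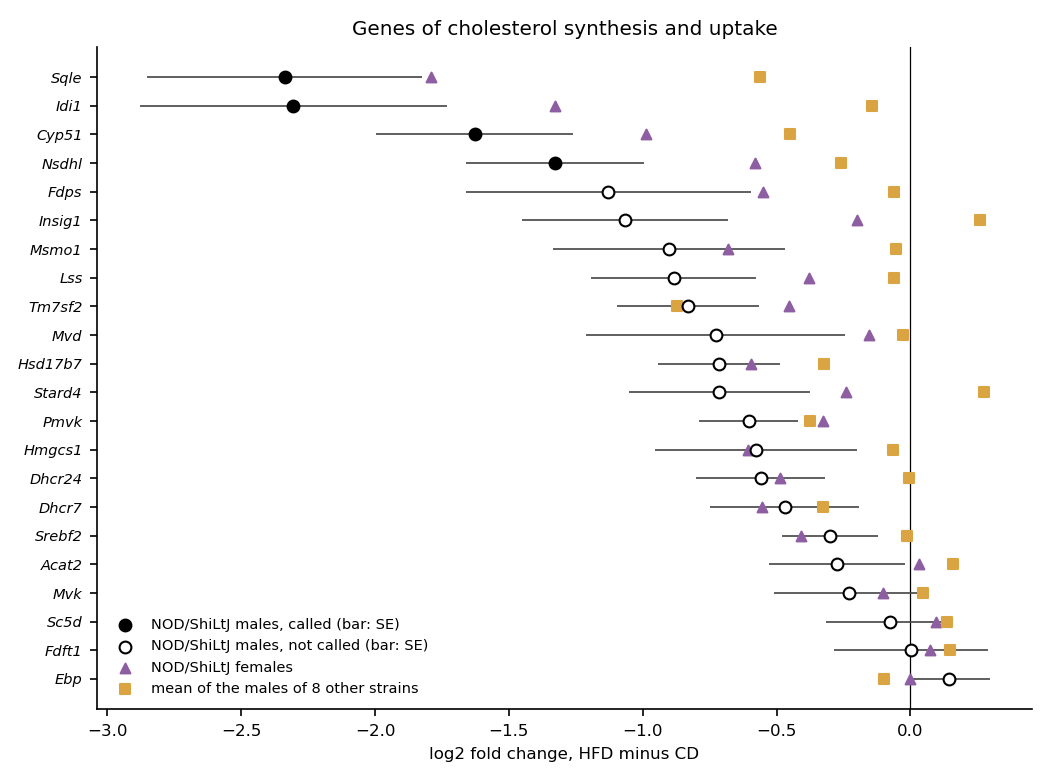
Log2 fold changes, HFD minus CD, of 22 genes of cholesterol synthesis and uptake (rows) in NOD/ShiLtJ males (circles, filled where called, with the SE as a bar), NOD/ShiLtJ females (triangles) and the mean over the males of the 8 other strains (squares). The male circles lie left of 0 for 20 of them, from -2.34 for Sqle to 0.15 for Ebp.

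The promoter sequence of the genes that fell is shown for 3 of them, because SREBP-driven sterol genes are known to carry binding sites for the cofactor NF-Y, whose core is CCAAT. Idi1, Cyp51 and Nsdhl are the fallen members of the list with an entry in the RefSeq promoter table used here, and Cyp51 and Nsdhl were chosen after their values were seen. Each line gives the 120 bases before the RefSeq start in GRCm38.p6, 5′ to 3′ on the gene's strand, with CCAAT or its reverse complement ATTGG in capitals.
Idi1, chr13:8885486-8885605, plus strand: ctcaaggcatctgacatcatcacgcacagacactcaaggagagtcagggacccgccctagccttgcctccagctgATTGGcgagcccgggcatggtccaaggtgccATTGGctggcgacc
Cyp51, chr5:4104698-4104817, minus strand: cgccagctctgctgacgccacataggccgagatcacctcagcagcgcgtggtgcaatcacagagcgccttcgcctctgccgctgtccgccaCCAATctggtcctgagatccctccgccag
Nsdhl, chrX:72918401-72918520, plus strand: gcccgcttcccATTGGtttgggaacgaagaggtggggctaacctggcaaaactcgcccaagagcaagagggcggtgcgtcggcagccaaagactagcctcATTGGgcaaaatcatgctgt
The motif stood 45 and 14 bases before the start in Idi1, 29 bases before it in Cyp51, and 109 and 20 bases before it in Nsdhl, counted from the start to the motif's first printed base. Searched on both strands in the 250 bases before the start, CCAAT was present for 16 of the 17 listed genes with an entry, or 80% of their 20 windows. It was present in 33.8% of all 32851 windows of that length. A match in these letters is a description of the sequence and says nothing of binding.

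Among genes of fatty acid and triglyceride synthesis, 3 fell and 1 rose of 25 found, with a list median of -0.26. Of all genes, 0.621% were called lower and 0.719% higher on HFD, with a median of 0.0036. Scd1 (chromosome 19, 44394455 to 44407879), which puts the double bond into stearate and palmitate, stood at 490, 832 and 642 CPM in the CD mice and at 22.3, 31.8 and 26.0 CPM in the HFD mice. The highest HFD value was far below the lowest CD value, the log2 fold change was -4.62 ± 0.90 (adjusted p = 0.00141), a 24.5-fold difference, and the call held in every fit that left out 1 mouse. Me1, malic enzyme, which supplies NADPH for fatty acid synthesis, stood at 95.0, 111 and 145 CPM on CD and at 42.4, 56.9 and 50.5 CPM on HFD (-1.23, adjusted p = 0.00229). Acacb, the mitochondrial acetyl-CoA carboxylase whose product restrains fatty acid oxidation, stood at 73.5, 43.3 and 85.4 CPM on CD and at 23.2, 24.8 and 24.5 CPM on HFD (-1.48, adjusted p = 0.0106). Neither gene's groups overlapped. The gene that went the other way was Srebf1 (chromosome 11, 60199089 to 60222581), with 41.2, 38.1 and 38.2 CPM on CD against 94.9, 89.2 and 111 CPM on HFD. The replicates of each diet were close together and far from the other diet, yet its adjusted p was 0.0467 (log2 fold change 1.33 ± 0.37), and it passed the threshold in no fit that left out 1 mouse (up to 0.24, without CD 3). Srebf1 overlaps Rai1 on the opposite strand.

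The other 21 members did not pass. Fatty acid synthase (Fasn) stood at 115, 98.5 and 126 CPM on CD and at 59.0, 69.2 and 57.5 CPM on HFD, with no overlap (-0.87, adjusted p = 0.235). Elovl6, a fatty acid elongase (-0.87), Fads1, a desaturase of polyunsaturated fatty acids (-0.64), and Gpam, which starts glycerolipid synthesis (-0.73), were also lower in all 3 HFD mice than in any CD mouse without passing. In all, 12 of the 25 members were lower and 3 higher on HFD without overlap, where 11% and 12.4% of all genes were. Acacb lost its call without CD 3, HFD 1 or HFD 2 (adjusted p up to 0.131) and Me1 without CD 3 (0.0637).

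Of 34 genes of fatty acid oxidation and ketogenesis, 31 had a negative log2 fold change and the median was -0.23 (-0.13 without CD 3). Of all 14330 genes, 7059 were negative. In the list, 10 members were lower and 0 higher on HFD without overlap, where 11% and 12.4% of all genes were. Only Ehhadh passed, beside 1.34% of all genes. Ehhadh, the peroxisomal bifunctional enzyme of β-oxidation, stood at 1696, 1580 and 3427 CPM on CD and at 856, 689 and 1139 CPM on HFD. The groups did not overlap (log2 fold change -1.32 ± 0.34, adjusted p = 0.0276), and the call was lost without CD 3 (0.475), HFD 1 (0.152) or HFD 2 (0.188). CD 3 was also the highest mouse for Pdk4, Fgf21 and Cyp4a14. Cyp4a14, a fatty acid ω-hydroxylase, stood at 4587, 2477 and 8378 CPM on CD and at 1357, 996 and 2871 CPM on HFD, with overlapping groups (-1.56, adjusted p = 0.0654). Pdk4, which shuts off pyruvate oxidation, had a log2 fold change of -1.69 (adjusted p = 0.291), and Cpt1a, which admits fatty acids into mitochondria, of -0.20 (0.771). Fgf21, a fasting hormone of the liver, had -0.68 (0.792).

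Of 27 genes of lipid droplets and fatty acid uptake, 1 fell and none rose (0.621% and 0.719% of all genes did), with a median of -0.25. Fitm2, an endoplasmic reticulum protein needed for droplet formation, stood at 101, 105 and 121 CPM on CD and at 68.5, 65.6 and 60.8 CPM on HFD (-0.75 ± 0.20, adjusted p = 0.032). All HFD values were below all CD values, but the call was lost whichever mouse was left out (0.24 without CD 3). Cidec, a droplet-fusion protein that often marks fatty liver, stood at 40.7, 22.4 and 65.8 CPM on CD and at 19.2, 11.5 and 28.5 CPM on HFD, with overlapping groups (-1.12, adjusted p = 0.501). Cd36, a fatty acid transporter, had a log2 fold change of 0.54 (0.548), and Pparg, the adipocyte receptor, of -0.28 (0.845).

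Among genes of xenobiotic metabolism, 1 of 44 passed, where 1.34% of all genes did. Cyp2b10, the classical target of the receptor CAR (gene Nr1i3), stood at 38.3, 19.7 and 35.1 CPM on CD and at 1.21, 2.76 and 2.02 CPM on HFD. The groups were far apart, with a log2 fold change of -3.96 ± 0.89 (adjusted p = 0.00743, and 0.0912 without HFD 1). Nr1i3 itself stood at 56.9, 46.4 and 48.4 CPM on CD and at 86.0, 80.5 and 81.1 CPM on HFD, without passing (0.71, adjusted p = 0.132). Cyp3a11, the main steroid- and drug-oxidising cytochrome of mouse liver, had a log2 fold change of -1.17 (0.129). The list as a whole had a median of 0.08.

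No gene passed among 23 found for bile acids and sterol transport (median 0.14, and 0.03 without CD 3; smallest adjusted p 0.161), but 2 enzymes of oxysterol metabolism outside that list fell. Cyp39a1 (chromosome 17, 43667425 to 43751431), which hydroxylates 24-hydroxycholesterol on the way to bile acids, stood at 18.5, 4.50 and 12.5 CPM on CD and at 1.58, 1.86 and 1.5 CPM on HFD. The HFD values were tightly grouped below the lowest CD value, and the log2 fold change of -2.85 ± 0.40 (adjusted p = 1.97e-06) held in every fit that left out 1 mouse. Cyp46a1, which makes 24-hydroxycholesterol and was picked out after its values were seen, stood at 234, 198 and 382 CPM on CD and at 85.0, 97.2 and 100.3 CPM on HFD (-1.53, adjusted p = 0.00404, and 0.115 without CD 3). Cyp7a1, the rate-limiting enzyme of the classical bile acid route, stood at 37.0, 54.2 and 15.2 CPM on CD and at 116, 95.6 and 78.9 CPM on HFD, without overlap but short of the threshold (1.45 ± 0.95, adjusted p = 0.586). Cyp8b1, which sets the share of cholic acid, had overlapping groups (-0.11, 0.933).

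The 12 largest rises among called genes of at least 1 CPM on HFD whose diets did not overlap included the following genes. Myom3 (chromosome 4) stood at 0.791, 0.574 and 0.977 CPM on CD and at 5.0, 7.10 and 8.00 CPM on HFD, a log2 fold change of 3.09 ± 0.53 (adjusted p = 0.000178). Wif1 (chromosome 10) stood at 0.811, 0.167 and 0.412 CPM on CD and at 5.02, 2.88 and 3.27 CPM on HFD (2.97 ± 0.43, adjusted p = 4.00e-06). Both were well separated between the diets. Dio1 (chromosome 4, 107291465 to 107307169) stood at 2.45, 1.70 and 1.43 CPM on CD and at 13.3, 16.4 and 12.8 CPM on HFD (2.92 ± 0.55, adjusted p = 0.000681). Tsc22d1 (chromosome 14), a leucine zipper protein of the TGF-β response, stood at 42.8, 39.3 and 29.6 CPM on CD and at 314, 240 and 96.2 CPM on HFD. Its HFD mice were spread widely but all lay above the CD mice (2.54 ± 0.40, adjusted p = 2.04e-05). Ly6c1, a surface protein of endothelium and leukocytes, stood at 1.31, 1.15 and 0.933 CPM on CD and at 7.14, 7.28 and 4.21 CPM on HFD (2.46, adjusted p = 1.61e-05). Its near-identical neighbour Ly6c2 also rose (2.30, adjusted p = 0.00317; 0.0503 without CD 1 and 0.0815 without CD 3), and how reads were split between the copies is not given. Myom3, Wif1, Dio1, Tsc22d1 and Ly6c1 kept their calls in every fit that left out 1 mouse.

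The remaining genes of the 12 largest rises were Gm26684 (log2 fold change 2.61), Vmn2r20 (2.60), Mas1 (2.44), BC049987 (2.34), Shisa8 (2.32) and 4930459C07Rik (2.26). Gm26684 overlaps Enpp2 and Mas1 overlaps Airn on the opposite strand, and all of them but Gm26684 lost the call when at least 1 mouse was left out: Vmn2r20 without HFD 2 (adjusted p = 0.0987), Mas1 without CD 1 (0.106), CD 3 or HFD 1, Shisa8 without CD 3 (0.0895), CD 2 or HFD 1, BC049987 in every such fit but that without HFD 3 (up to 0.371), and 4930459C07Rik likewise (up to 0.353). Of the 12 largest falls not yet described, Cdhr2, a cadherin of the brush border, stood at 1.96, 2.13 and 3.43 CPM on CD and at 0.325, 0.420 and 0.375 CPM on HFD. It had the smallest adjusted p of all genes (5.92e-07, log2 fold change -2.74 ± 0.35) and kept its call throughout. Abcd2, a peroxisomal transporter of very-long-chain fatty acids, stood at 17.8, 17.4 and 28.3 CPM on CD and at 1.80, 1.70 and 7.33 CPM on HFD (-2.55, adjusted p = 0.0133; 0.108 to 0.162 without CD 3, HFD 1 or HFD 2). Tuba8, a tubulin, had a log2 fold change of -2.99, Tmed6, a protein of vesicle traffic, of -2.06, and Cdc42ep5, a Cdc42 effector, of -2.05. Tuba8 lost its call without CD 3, HFD 1 or HFD 2 (adjusted p up to 0.109), Tmed6 without CD 2, HFD 1 or HFD 2 (up to 0.089), and Cdc42ep5 in every such fit but that without HFD 3 (up to 0.307).

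**Figure D3:**
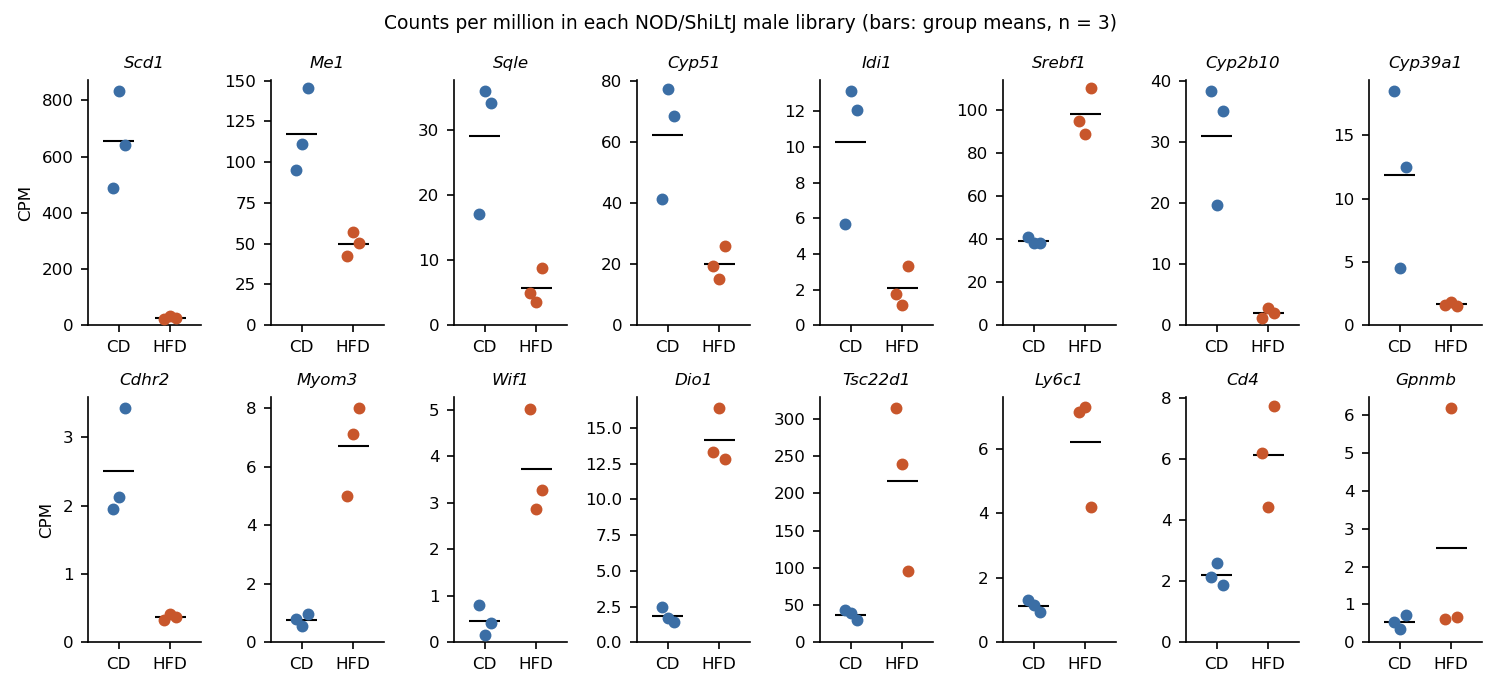
CPM in each NOD/ShiLtJ male library for 16 genes, with CD mice in blue, HFD mice in orange and the group mean as a bar (n = 3 each); each panel has its own linear y axis from 0. The diets do not overlap in 15 panels, and in Gpnmb a single HFD mouse carries the difference.

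Among abundant genes, 22 of 1392 with a mean of at least 100 CPM on either diet were called (1.58%, near the 1.34% of all genes), 12 higher and 10 lower on HFD; this group was formed after the values were seen. Dmgdh, the mitochondrial dimethylglycine dehydrogenase, stood at 459, 394 and 323 CPM on CD and at 769, 762 and 804 CPM on HFD (0.99 ± 0.17, adjusted p = 0.000196). Bhmt2, a methyltransferase that makes methionine, adjoins Dmgdh on chromosome 13 and rose from 249.9, 206 and 184 CPM to 348, 284 and 326 CPM (0.58, adjusted p = 0.0247; 0.0704 to 0.289 without CD 2, CD 3, HFD 1 or HFD 3). Agxt2, a mitochondrial aminotransferase, rose by a log2 fold change of 0.80 (adjusted p = 0.000608). Slc22a7, the organic anion transporter 2, stood at 27.0, 34.7 and 18.4 CPM on CD and at 131, 95.9 and 98.2 CPM on HFD (2.02, adjusted p = 0.00229; 0.0657 without CD 3). Enpp2, which encodes the secreted lysophospholipase autotaxin, stood at 52.5, 62.3 and 44.3 CPM on CD and at 135, 147 and 127 CPM on HFD (1.36, adjusted p = 0.000179). Rarres2, which encodes the chemokine chemerin, rose by 0.97 (adjusted p = 0.000227). Dmgdh, Agxt2, Enpp2 and Rarres2 kept their calls in every fit that left out 1 mouse. Glul, glutamine synthetase, stood at 579, 637 and 734 CPM on CD and at 1141, 1154 and 856 CPM on HFD (0.69, adjusted p = 0.0438; up to 0.253 in each fit without 1 mouse other than HFD 3). Among the abundant falls outside the lists, Nadk, which makes NADP, had a log2 fold change of -0.65 (adjusted p = 0.00653; 0.107 without CD 3 and 0.0532 without HFD 1), and Kyat3, a kynurenine aminotransferase, of -0.79 (0.0279; up to 0.157 in each fit without 1 mouse other than CD 1).

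Of 27 macrophage and inflammation genes, only Gpnmb, a marker of lipid-laden macrophages, passed, where 1.34% of all genes did (median of the list 0.10). The value of Gpnmb came from 1 mouse: it stood at 0.534, 0.359 and 0.716 CPM on CD and at 0.628, 6.17 and 0.667 CPM on HFD. The groups overlapped, and the adjusted p went from 0.0173 to 0.926 without HFD 2 and to 0.0737 to 0.0975 without any 1 CD mouse. Adgre1, the macrophage surface marker F4/80, had overlapping groups (log2 fold change 0.03, adjusted p = 0.98; the sign turned with some settings). No gene passed of 30 for extracellular matrix and stellate cells (median 0.0058), but 1 passed with DESeq2 or without HFD 3, 2 with the NOD/ShiLtJ libraries alone and 3 with the 6 male libraries alone. Col4a2, a basement membrane collagen, came nearest, with 19.9, 22.5 and 25.5 CPM on CD and 38.4, 47.7 and 39.8 CPM on HFD (0.89, adjusted p = 0.0574), and Col1a1 had a log2 fold change of 0.31 (0.851). Of 22 lymphocyte genes, Cd4 rose, with 2.16, 2.58 and 1.87 CPM on CD and 6.19, 4.45 and 7.73 CPM on HFD (1.48, adjusted p = 0.0055; 0.0815 without CD 3). Cd4 was the only call of the 22, where 1.34% of all genes were called. The T cell genes Cd3g, Lck and Cd8a did not pass (log2 fold changes 0.12, -0.15 and -0.24), and Cd3d, Cd3e and Trac were not analysed here. Themis, a T cell signalling protein picked out after its values were seen, rose from 0.0989, 0.0717 and 0.0434 CPM to 0.801, 0.663 and 0.312 CPM (2.99, adjusted p = 0.00528).

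The acute phase and complement list held no called gene (1 with DESeq2 or limma, 5 with the NOD/ShiLtJ libraries alone, 4 with the 6 male libraries alone and 1, Orm3, without CD 1), but 27 of its 31 members had a positive log2 fold change, the median was 0.41, and 13 were higher and 2 lower on HFD without overlap (12.4% and 11% of all genes). Orm3, an orosomucoid, stood at 2.25, 0.550 and 0.651 CPM on CD and at 5.65, 6.86 and 5.81 CPM on HFD (2.38, adjusted p = 0.0574). Saa4, a constitutive serum amyloid A, had a log2 fold change of 1.11 (0.198), and Hamp, the iron hormone hepcidin, went the other way with -1.43 (0.195). Stat3, the transcription factor of the acute phase, lies outside the list and rose from 96.7, 94.5 and 105.7 CPM to 158, 145 and 198 CPM (0.75, adjusted p = 0.0253; 0.076 to 0.162 in each fit without 1 mouse other than HFD 2). The interferon and antigen presentation list (39 genes, median 0.04), endoplasmic reticulum stress (27, 0.22), the circadian clock (21, -0.04), oxidative phosphorylation (65, 0.02) and the cell cycle (28, 0.04) also held no called gene. Of 7 alternatives that kept all mice of the pair, 2 called Mx2 (positive) and 2 called H2-K1 (negative) of the interferon list. In the endoplasmic reticulum list, 1 called Calr (positive). The medians of the interferon, clock, oxidative phosphorylation, matrix, macrophage, lymphocyte and xenobiotic lists changed sign in at least 1 fit that left out 1 mouse. Among 26 oxidative and heat stress genes 1 fell, where 0.621% of all genes did. The small heat shock protein Hspb1 fell from 78.8, 74.2 and 110 CPM to 20.4, 22.3 and 16.6 CPM (-2.15, adjusted p = 0.0148). Its call was lost without CD 3, HFD 1, HFD 2 or HFD 3 (up to 0.108), and 10 members of the list were lower without overlap (11% of all genes).

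Glucose metabolism and insulin response held no called gene among 30 found (median -0.10, and -0.0085 without HFD 1). Irs2, the insulin receptor substrate, had a log2 fold change of -1.12 (adjusted p = 0.291), and Igfbp1 overlapped between the diets (-0.08, 0.978).

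Of 33 genes known as female-biased in mouse liver and in the table, 2 fell (0.621% of all genes did), and the median of the list was -0.97. They were Abcd2 and Cyp17a1, a steroid hydroxylase. Cyp17a1 stood at 32.6, 7.2 and 32.6 CPM on CD and at 4.94, 4.11 and 14.9 CPM on HFD (-1.60, adjusted p = 0.0383, and 0.189 to 0.325 without CD 1, CD 3, HFD 1 or HFD 2). The list's median stayed negative whichever mouse was left out, between -1.05 and -0.42. Its size depended on 1 mouse: it was -0.42 without CD 1, the male with the highest level of A1bg, at 3.05 CPM against 0.143 and 0.434 CPM in CD 2 and CD 3. Without overlap, 10 members were lower and 3 higher on HFD, where 11% and 12.4% of all genes were. Of 30 male-biased genes, Gna14, a G protein subunit, rose from 3.20, 3.80 and 1.22 CPM to 9.07, 8.45 and 6.54 CPM (1.55, adjusted p = 0.00229; 0.105 without CD 3). Gna14 was the only call in that list, where 1.34% of all genes were called. The list's median was 0.32, and it was 0.64 without CD 2 and 0.21 without CD 3.

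**Figure D4:**
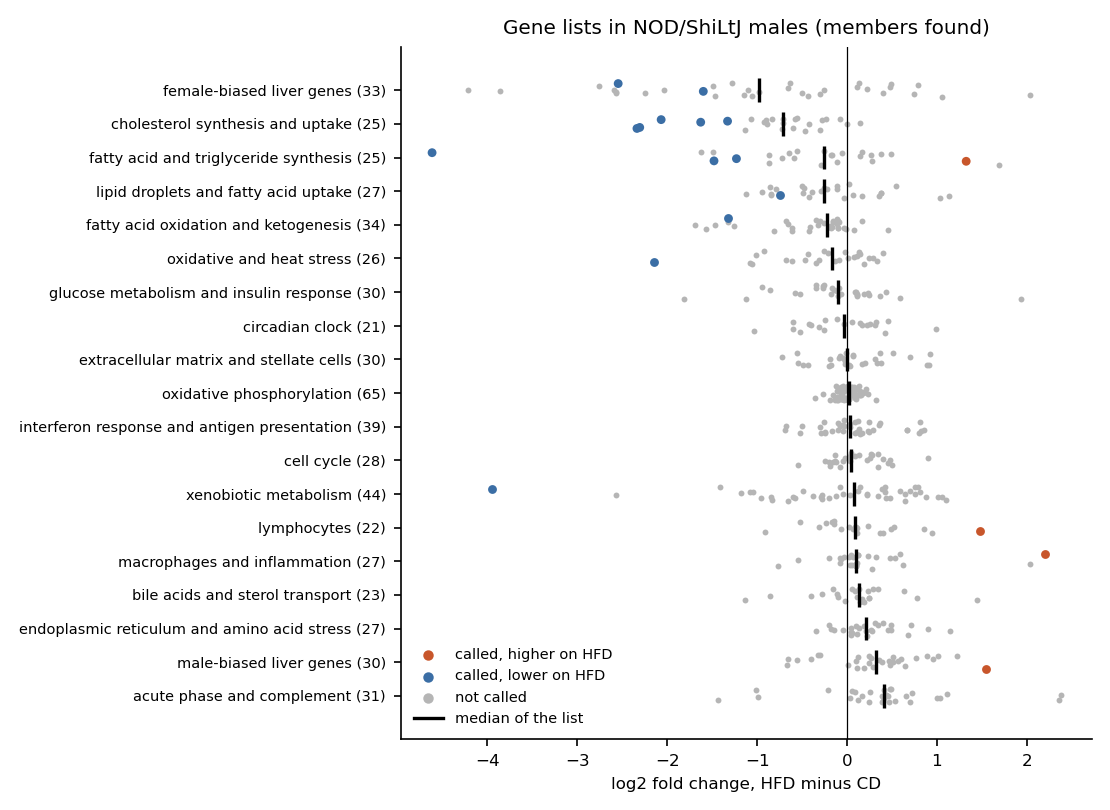
Log2 fold changes, HFD minus CD, in NOD/ShiLtJ males for the members of 19 gene lists (rows, with the number of genes found); points are genes, coloured where called, and the black bar is the list's median. The medians run from -0.97 for female-biased genes and -0.72 for cholesterol genes to 0.41 for acute phase genes, and the cholesterol row holds 5 called falls.

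Summed levels of cell type markers were higher on HFD without overlap for granulocytes (1.53 to 2.08 CPM on CD, 2.94 to 4.83 CPM on HFD; 8 of 8 markers found), T and NK cells (3.18 to 3.63 against 5.37 to 8.89 CPM; 4 of 11, where Cd4 made up most of the sum and the median log2 fold change was -0.02), white adipose tissue (3.95 to 5.12 against 5.41 to 7.17 CPM; 2 of 5) and exocrine pancreas (11.8 to 17.3 against 19.2 to 32.1 CPM; Cela1 alone of 7). S100a8 and S100a9 made up most of the granulocyte sum on HFD (log2 fold changes 1.33 and 1.37, adjusted p = 0.525 and 0.514). Ltf went the other way (-0.26), and no granulocyte marker passed the test. Fabp4 made up most of the adipose sum (0.38, adjusted p = 0.704). Among all single genes, 12.4% were higher on HFD without overlap. Markers of Kupffer cells, endothelium, stellate cells, cholangiocytes, B and plasma cells and red blood cells overlapped between the diets in their sums. The part of these shifts in the results above was not tested.

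NOD/ShiLtJ females on the same diets gave the same direction for most male changes. Of the 192 genes called in males, 176 had the same sign in females, 97 of 103 rises and 79 of 89 falls, with medians of 0.56 and -0.39 in females against 1.41 and -0.94 in males. The genes were selected for their change in males. In females 127 genes were called (0.886% of those tested; 57 higher, 0.398%, and 70 lower, 0.488%). The 28 genes called in both sexes made up 14.6% of the male and 22% of the female calls, and all had the same sign. They included Srebf1 (1.62 in females), Acacb (-2.05), Me1 (-1.08), Slc22a7 (1.55), Enpp2 (1.29), Agxt2 (0.86), Cyp39a1 (-1.30), Cyp17a1 (-2.62), Cdhr2 (-1.27) and Ly6c1 (2.11). All 5 fallen cholesterol genes were also negative in females without being called there, and the list's female median was -0.49.

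The test of the difference between the sexes called 1 gene of 14296 (0.00699%), with 642 at an unadjusted p under 0.05. Akr1e1 (chromosome 13), an aldo-keto reductase, stood at 3.08, 4.28 and 1.65 CPM in CD males and at 1.67, 1.42 and 1.44 CPM in HFD males (-0.99, adjusted p = 0.149). In females it rose from 1.65 ± 1.14 CPM to 5.08 ± 2.35 CPM (SD, n = 3 each; 1.63, adjusted p = 0.00348), and the difference, male minus female, was -2.62 (edgeR adjusted p = 0.00839). Some large male changes were near 0 in females without a called difference. Tsc22d1 had a log2 fold change of -0.04 in females, from 83.1 to 80.7 CPM, and the adjusted p of the difference was 0.056. Dio1 had 0.16 in females, where it was already at 17.1 ± 3.48 CPM on CD (SD, n = 3), above the level of HFD males in the mean (edgeR adjusted p of the difference 0.46).

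The male response was then set against the mean response of the males of the 8 other strains, WSB/EiJ, A/J, PWK/PhJ, C57BL/6J, CAST/EiJ, DBA/2J, NZO/HlLtJ and 129S1/SvImJ. The difference was called for 31 of 14243 genes (0.218%), 19 with a higher and 12 with a lower value in NOD/ShiLtJ, and 28 of the 31 were also called for diet within NOD/ShiLtJ males. The largest positive differences were those of Dio1 (2.71 ± 0.57, adjusted p = 0.012), Myom3 (2.29, 0.0384), Wif1 (2.21, 0.0263), Camk2b (2.20, 0.0276) and Ly6c1 (2.14, 0.0043). Dio1 ranged from -0.30 to 1.14 in the other strains, all below the 2.92 of NOD/ShiLtJ. Myom3 had 2.05 in WSB/EiJ, and Wif1 had 2.12 in DBA/2J and 1.28 in A/J. Camk2b, a calcium-dependent kinase, stood at 8.80, 13.7 and 1.5 CPM in CD and at 33.4, 28.9 and 24.7 CPM in HFD males of NOD/ShiLtJ, while 7 of the 8 other strains had a negative value and 129S1/SvImJ 0.79. Ly6c1 was raised next most in NZO/HlLtJ (1.73, with 1 HFD mouse) and was negative in CAST/EiJ (-0.51) and WSB/EiJ (-1.02). Tsc22d1 (2.06, 0.00748) and Dmgdh (0.89, 0.00861) were also among the 31 genes.

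The largest negative differences were those of Cyp39a1 (-2.73 ± 0.42, adjusted p = 0.000141), Cdhr2 (-2.29, 0.000616), Ankrd55 (-1.67, 0.0263), Rnf227 (-1.43, 0.0354) and Evc2 (-1.18, 0.0206). For Cyp39a1 the other strains ranged from -1.24 in WSB/EiJ to 0.84 in NZO/HlLtJ, and NOD/ShiLtJ lay at -2.85. Cdhr2 was lowered nearly as far in CAST/EiJ (-2.16) but was positive in A/J (1.26). Ankrd55, an ankyrin repeat protein, stood at 19.3, 55.6 and 17.1 CPM in CD and at 12.4, 8.16 and 11.1 CPM in HFD males. Rnf227, a RING finger protein, stood at 1.42, 1.17 and 2.15 CPM on CD and at 0.952, 0.641 and 0.708 CPM on HFD, and its diet effect within NOD/ShiLtJ did not pass (adjusted p = 0.072). Evc2, a protein of the primary cilium, stood at 5.46, 4.83 and 5.03 CPM on CD and at 2.99, 2.26 and 2.54 CPM on HFD. Evc2 was the lowest in NOD/ShiLtJ of all 9 strains, the next being -0.30 in 129S1/SvImJ.

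Unlike that of Cyp39a1, the changes in Scd1, Me1, Acacb, Ehhadh and the 5 fallen cholesterol genes were not called as different from the other strains. Scd1 was -4.62 in NOD/ShiLtJ and between -3.21 and -2.35 in 7 other strains, with 1.16 in C57BL/6J, and the adjusted p of its difference from their mean was 0.299. For the 5 fallen cholesterol genes that adjusted p was 0.117 to 0.209, although the list's median was -0.06 in the mean of the other males. Over all 192 genes, 160 had the same sign in the mean of the other males, with medians of 0.28 for the rises and -0.24 for the falls. The count of 31 depended on single mice and strains: it was 3 without CD 3, 14 without HFD 1, 20 without HFD 2, 45 without CD 1, 15 without A/J, 20 without PWK/PhJ and 91 without WSB/EiJ. The difference held for Cyp39a1 and Cdhr2 in every one of these fits.

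**Figure D5:**
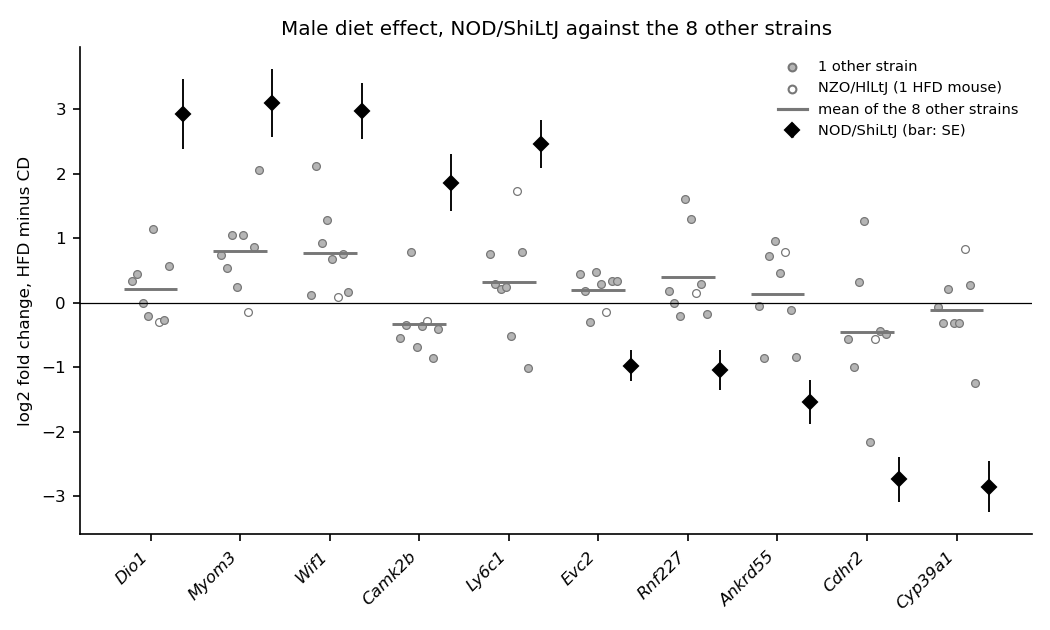
Male log2 fold changes, HFD minus CD, for 10 genes called as different between NOD/ShiLtJ and the mean of the 8 other strains. The genes are those with the largest differences in each direction, with equal numbers of positive and negative differences. Black diamonds are NOD/ShiLtJ, with the SE as a bar, and grey lines are the mean of the other strains. Grey points are single strains, the open point NZO/HlLtJ with 1 HFD mouse. NOD/ShiLtJ lies outside the range of the other strains for all 10 genes, nearest to it for Cdhr2, where CAST/EiJ is at -2.16.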

How the data were processed

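Liver RNA was sequenced from 106 mice, and the 6 NOD/ShiLtJ male libraries are described here, each from 1 mouse. The p-values rest on a spread between mice that was estimated over all strains, sexes and diets. The authors' deposited table holds whole-number counts of reads per gene, not normalized by the values although its name speaks of TMM. FastQC, STAR 2.73a and edgeR 3.24.3 are named per the submitters' processing notes, without role or order; the counting tool, strand setting, genome build, annotation and gene filter are not given in the sources used here. The 3 special lines that name no gene were left out. Symbols and positions came from the GENCODE M21 annotation (GRCm38), which named 14321 of the 14330 genes.

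Counts were scaled by TMM and fitted with edgeR 4.0.16 (R 4.3.3) quasi-likelihood as 36 group means over 106 libraries, with 70 residual degrees of freedom. Diet, male minus female diet effect, and NOD/ShiLtJ minus the mean of the other males were tested two-sided, with Benjamini-Hochberg adjustment over all genes and a threshold of 0.05. CPM used TMM-scaled totals, and a gene's SE is its fold change divided by the square root of its F. DESeq2 1.42.0, limma 3.58.1, narrower fits, other scaling and filters, and leaving out single mice or strains were alternatives. In counts simulated for the diet contrast over 14330 genes, 30% of 1.5-fold, 70% of 2-fold and 94% of 4-fold changes were recovered, with 1.36% false calls. For the sex contrast 6%, 48% and 88% were recovered, with 2.48% false calls, and for the strain contrast 24%, 68% and 94%, with 7.89% false calls. Each simulated gene took its spread from the fit of all libraries, the same in every group. A spread particular to NOD/ShiLtJ males was thus not simulated, and these shares are not error rates of the calls reported here.

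Named genes were the 12 largest rises and falls among called genes that did not overlap between diets and reached 1 CPM, up to 4 members of each list with the smallest p, the 5 largest called differences each way from females and from other strains, and a fixed panel. Other named genes, such as those of at least 100 CPM, were chosen after their values were seen. Members and lists were chosen with earlier results of these data known. Some genes of the lists are not reported here by name.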

Additional observations from a re-analysis of the deposited data

Results flagged for a closer look

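The male diet effect in NOD/ShiLtJ differed from that in females in 1 gene and from the mean of the other strains' males in 31 genes, by a test of the difference itself (edgeR, Benjamini-Hochberg adjusted). The former and the 5 largest of the latter in each direction are given here. For Akr1e1 the log2 difference, male minus female, was -2.62, and the adjusted p of 0.00839 went up to 0.192 when single mice were left out.

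Against the mean of the males of the other strains, the log2 difference was 2.71 for Dio1, 2.29 for Myom3, 2.21 for Wif1, 2.20 for Camk2b and 2.14 for Ly6c1. It was -2.73 for Cyp39a1, -2.29 for Cdhr2, -1.67 for Ankrd55, -1.43 for Rnf227 and -1.18 for Evc2. With 1 mouse or strain left out, that of Ankrd55 ranged from -1.96 to -0.93, with an adjusted p of up to 0.451 (without CD 2, its highest mouse). Cyp39a1 and Cdhr2 passed the threshold in all 14 fits that left out 1 NOD/ShiLtJ male or 1 strain. Ly6c1 lost its call without CD 3 (adjusted p = 0.0574), Dio1 without CD 2 (0.0589) or CD 3 (0.147), Myom3 in 11 of the 14 fits, Wif1 and Camk2b in 7 each, Ankrd55 in 6, and Rnf227 and Evc2 in 5 each. With limma the calls of Ly6c1 (adjusted p = 0.0535), Ankrd55 (0.127), Camk2b and Rnf227 were lost, with the male libraries alone those of Myom3 (0.0755), Camk2b (0.109) and Rnf227 (0.0679), and with genes of low mean left out that of Myom3 (0.0518). In all, Myom3 lost its call in 3 of the 6 alternatives that left out no single mouse or strain.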

How the results depend on the processing

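The 192 genes called for diet became 487 with the NOD/ShiLtJ libraries alone (159 shared), 383 with the 6 male libraries alone (134 shared), 111 with genes of low mean left out, 260 with DESeq2 (190 shared) and 173 with limma; without TMM factors they were 173, of which 46.2% were higher on HFD, against 53.6%. Leaving out 1 mouse gave 44 to 158 calls. The 1 gene called between the sexes became 4 with DESeq2, 3 with the NOD/ShiLtJ libraries alone (0 shared) and 0 to 2 with 1 mouse left out. The 31 genes called against the other strains became 61 with DESeq2, 26 with limma (23 shared), 24 with the male libraries alone (19 shared), 16 with genes of low mean left out, 41 without TMM factors (31.7% higher, against 61.3%), 15 without A/J, 20 without PWK/PhJ, 91 without WSB/EiJ, and 3 to 45 with 1 mouse left out. Without TMM factors the median of all genes was -0.03 for diet, -0.15 for the sex contrast and -0.09 for the strain contrast. Adgre1 turned to -0.0064 without TMM factors and ranged from -0.084 (without CD 3; -0.08 without HFD 2) to 0.16 with 1 mouse left out, Cidea from -0.010 to 1.93, Cyp8b1 from -0.24 to 0.090 and Igfbp1 from -0.31 to 0.14; none of these 4 genes was called. The cause of these shifts was not tested, apart from the fewer mice or genes by construction. No paired analysis was possible because the labels give no replicate numbers that tie mice across groups. Counts were deep, and 3 mice per group limit precision.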
